A study of Mus musculus with 78 samples.

Results

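The 10 genes described here, Map1lc3a, Pigu, Ncoa6, Ggt7, Gss, Myh7b, Trpc4ap, Edem2, Procr and Eif6, lie around Acss2 on mouse chromosome 2. They were taken as listed by position and were all found by symbol among the 55367 gene symbols of both count tables. Acss2 encodes a cytosolic and nuclear acetyl-CoA synthetase, which turns acetate, formed when ethanol is broken down, into acetyl-CoA. The question was whether deleting part of Acss2, or variants carried along with the deleted allele, altered the RNA level of the genes beside it.

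The data were poly(A) RNA-seq counts from 78 libraries of 7 brain regions (amygdala, cortex, prefrontal cortex, dorsal and ventral hippocampus, dorsal and ventral striatum) of 12 adult C57BL6/J mice, 3 for each sex and genotype. KO mice carried a constitutive CRISPR/Cas9 deletion made in embryos with guides in introns before exon 3 and after exon 7 of Acss2, and the founders were backcrossed to C57Bl6/J for 3 generations. The labels do not say how many founder lines gave the 6 KO mice. KO and WT mice alike drank 15% ethanol in the dark phase, in daily sessions of 2 h with a longer session of 4 h on day 4, after a habituation of 1 week. In the first week of drinking water was offered beside ethanol, and in the second week it was not. No group without ethanol was part of these data, so every level below is a level in drinking mice. Dorsal and ventral striatum and dorsal and ventral hippocampus had all 12 mice. Amygdala and cortex had 6 KO and 5 WT libraries, and prefrontal cortex had 4 of each.

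Genes that share a chromosomal stretch can be affected together when a neighbour is edited, through lost regulatory DNA, through read-through transcription, or through sequence differences that travel with the edited allele. The 10 genes have varied cellular tasks. Gss and Ggt7 belong to glutathione metabolism, Edem2, Pigu and Map1lc3a to the handling of proteins in the secretory and autophagy systems, Ncoa6 and Eif6 to transcription and translation, and Myh7b, Trpc4ap and Procr to other functions.

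In the GENCODE M21 annotation of GRCm38, the 11 genes including Acss2 span 550.6 kb of chromosome 2, from 155276297 to 155826925. Acss2 runs on the plus strand from 155517948 to 155585724. One annotated transcript has 18 exons, of which exons 3 to 7 take up 1279 bp of the genome, from 155549191 to 155550469. Those exons hold 460 bp, or 15.7%, of the 2931 bp transcript. That the exon numbers of the deletion refer to this transcript was assumed here, also for the distances below. Ggt7 lies before it on the minus strand (155490379 to 155518237), and Gss lies on the minus strand (155563181 to 155592810) with one end inside the Acss2 gene body. The main first exon of Ggt7 ended 34.3 kb before exon 3, and the nearest end of Gss lay 12.7 kb after exon 7. Gaps to the gene body of Acss2 were 25.5 kb for Myh7b, 44.1 kb for Ncoa6, 48.5 kb for Trpc4ap, 116.0 kb for Edem2, 160.5 kb for Pigu, 165.4 kb for Procr, 234.1 kb for Eif6 and 239.9 kb for Map1lc3a.

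In this annotation the pair that touch Acss2 also overlap its exons. In the RefSeq spans neither touches it: Acss2 runs from 155518043 to 155562743, Ggt7 lies up to 155514891 and Gss from 155563181. By GENCODE, Ggt7 shares 197 bp of exon with Acss2, 6.04% of its own exonic length, and Gss shares 395 bp, 6.68%. Whether counting used strand, and what became of reads over shared exons, is not given in the sources used here, and the part of such reads in the Ggt7 and Gss values was not tested. The stretch below is shown because the genes share it. It is the window around the RefSeq start of Acss2 at chr2:155517793-155518092, plus strand, GRCm38.p6, and the 52 bases in capitals lie inside the 197 bp first exon of an annotated Ggt7 transcript on the other strand.
Acss2 start window: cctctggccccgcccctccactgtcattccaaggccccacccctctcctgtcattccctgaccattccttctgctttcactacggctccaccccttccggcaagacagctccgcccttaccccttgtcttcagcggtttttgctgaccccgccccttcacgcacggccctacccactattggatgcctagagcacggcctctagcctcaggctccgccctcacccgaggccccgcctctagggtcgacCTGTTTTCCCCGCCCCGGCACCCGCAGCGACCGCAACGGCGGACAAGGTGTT

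RefSeq start windows (250 bases before to 50 after the start) were at hand for 8 of the 10 genes. That of Ncoa6 lay 33128 bp inside the RefSeq span of the gene, and the other 7 began within 200 bp of the end of the span where the gene starts. These 7 held from 4 CG dinucleotides in Myh7b to 18 in Trpc4ap, and 6 of the 7 held more than the median of 7 over 27025 such windows. The letters TATAAA, searched on both strands, occurred in 0 of the 7, and in 14.2% of all windows, which were not filtered by position. With the Ncoa6 window, which held TATAAA and 1 CG dinucleotide, it was 1 of 8.

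**Figure D1:**
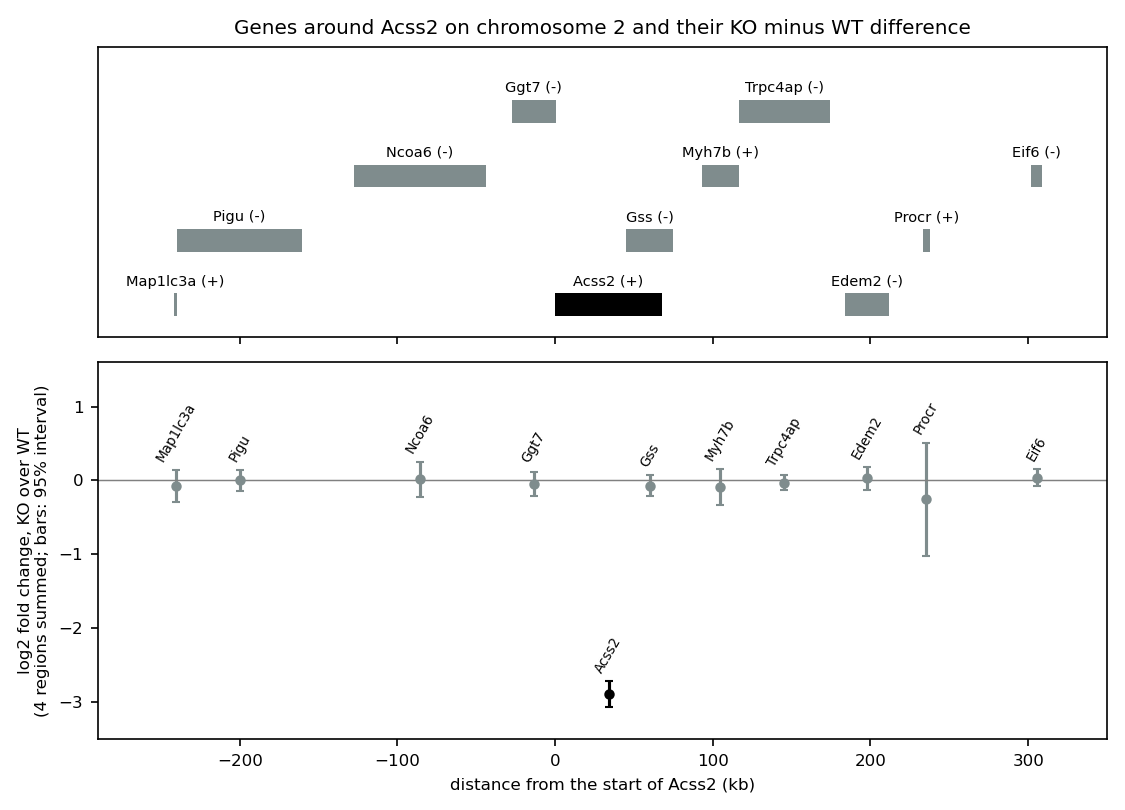
The upper panel maps the 11 genes by their distance in kb from the start of Acss2, with strand in brackets. The lower panel gives the log2 fold change of KO over WT with its 95% interval, from counts summed over 4 regions in 12 mice: Acss2 is at -2.89, and the intervals of all 10 neighbours include 0.

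Total counts were 4454420 to 14487778 in the 47 libraries of both striatal regions, amygdala and dorsal hippocampus, and 629635 to 1228828 in the 31 of cortex, prefrontal cortex and ventral hippocampus. A level of 3 counts, the limit that a count of 0 allows, was 0.207 to 0.673 CPM (counts scaled to 1e6 per library) in the first set and 2.44 to 4.76 CPM in the second. One female WT prefrontal cortex library, of mouse 23, held 0 counts of Xist and a male level of Ddx3y, 73.4 CPM. A further 4 libraries went against their region label when 9 markers of striatal projection neurons were summed. The dorsal striatum libraries of KO male mouse 10 and WT female mouse 23 held 447 and 266 CPM of them and the ventral striatum library of WT male mouse 13 held 477 CPM, against 1085 to 9420 CPM in the other 21 striatum libraries. The ventral hippocampus library of KO female mouse 6 held 4180 CPM, against 163 to 2302 CPM in the other 53 libraries. The main edgeR tests that used these 4 libraries were repeated without them. In the sums over 4 regions, all of the 7 marker lists for neurons, glia, vessels and choroid plexus had overlapping KO and WT ranges over the 12 mice. In prefrontal cortex the 9 striatal markers did not overlap, with 712 to 2134 CPM in the 4 KO libraries and 234 to 396 CPM in the 4 WT libraries. The other 6 lists overlapped there, but some medians were well apart. Oligodendrocyte markers had medians of 7839 CPM in KO (2656 to 11862) and 2363 CPM in WT (1809 to 3442). Endothelial markers had medians of 182 CPM in KO (172 to 198) and 242 CPM in WT (194 to 264).

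Acss2 itself was checked first. The counts of the 4 regions that all mice have were summed per mouse, so that deeper libraries weigh more. In these sums Acss2 ranged from 5.80 to 7.64 CPM in the 6 KO mice (median 6.83). In the 6 WT mice it ranged from 45.2 to 61.2 CPM (median 49.7). The groups were far apart, and the genotype labels of all 12 mice fit this gene. The log2 fold change was -2.89 ± 0.08 (SE; edgeR quasi-likelihood test, adjusted p = 8.47e-10), so KO counts averaged 13.4% of WT. Acss2 was also the only gene of 16672 called at an adjusted p under 0.05, which is 0.006% of genes tested. In the fit of all 7 regions with the mouse as a block, 6 genes were called.

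None of the 10 neighbours was called in the pooled test. With edgeR, 0 of 10 passed after adjustment and 0 of 10 had an unadjusted p under 0.05, and DESeq2 gave the same 0 and 0. Of the 10, 4 had a higher and 6 a lower fitted level in KO. Their median log2 fold change was -0.04 and the median absolute value was 0.04, against 0.06 over all genes other than Acss2. For each of the 10 genes the ranges of the 6 KO and the 6 WT mice overlapped, and the share of all genes with such overlap was not computed. Without the 4 mice that gave a library apart by striatal markers (8 mice left), 0 of the 9 neighbours tested were called and 0 had an unadjusted p under 0.05. Their values then ran from -0.11 for Gss (-0.31 to 0.09) to 0.04 for Eif6 (-0.10 to 0.18), with Ggt7 at -0.06 (-0.19 to 0.06).

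Gss encodes glutathione synthetase, which performs the last step of glutathione synthesis. Its summed level was 16.4 to 20.5 CPM in KO mice (median 19.3) and 18.9 to 21.2 CPM in WT mice (median 20.02). Of the 6 KO values, 4 lay inside the WT range. The log2 fold change was -0.07, with a 95% interval of -0.21 to 0.07 (edgeR, adjusted p = 1), which spans a change of -13.5% to 4.84%. Ggt7 encodes a member of the gamma-glutamyltransferase family, whose best known members break down extracellular glutathione. It ranged from 83.0 to 116 CPM in KO mice (median 88.8) and from 93.2 to 110 CPM in WT mice (median 94.3). The highest KO value, in male mouse 10, was above every WT mouse, 1 KO value lay inside the WT range, and the other 4 lay below every WT mouse. The interval of the log2 fold change was -0.21 to 0.12 around -0.05.

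Myh7b, which encodes a myosin heavy chain, was low, at 7.33 to 10.04 CPM in KO and 7.71 to 11.7 CPM in WT mice. Its log2 fold change was -0.09 (95% interval -0.33 to 0.15). Trpc4ap encodes an adaptor that binds a calcium channel subunit and a ubiquitin ligase. It was the most tightly measured of the 10, at 155 to 170 CPM in KO and 162 to 176 CPM in WT mice, with a coefficient of variation of 3.65% over the WT mice. The interval for Trpc4ap was -0.13 to 0.07, which spans a change of -8.55% to 4.98%.

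Among the genes of protein handling, Edem2 encodes a mannosidase-like protein that marks misfolded glycoproteins in the endoplasmic reticulum for removal. All 6 KO mice (19.4 to 23.9 CPM) lay inside the WT range (19.4 to 24.4 CPM), and the log2 fold change was 0.03 (-0.12 to 0.18). Pigu encodes a subunit of the transamidase that attaches glycosylphosphatidylinositol anchors to proteins. It was at 16.3 to 19.5 CPM in KO and 16.6 to 19.7 CPM in WT mice, a log2 fold change of 0.00 (-0.14 to 0.14). Map1lc3a encodes LC3A, one of the ubiquitin-like proteins of the autophagosome membrane. It varied more, from 74.1 to 107 CPM in KO and from 79.9 to 120 CPM in WT mice, and its interval was correspondingly wider (-0.29 to 0.14).

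Eif6 encodes a factor that keeps the large ribosomal subunit apart from the small one, and Ncoa6 encodes a coactivator of nuclear receptors. Eif6 was at 43.8 to 51.4 CPM in KO and 39.5 to 51.6 CPM in WT mice, with an interval of -0.08 to 0.15 for the log2 fold change. For Ncoa6 the ranges were 64.0 to 82.7 CPM in KO and 60.5 to 85.9 CPM in WT, and the interval was -0.22 to 0.25. All 6 KO mice were inside the WT range for both genes.

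Procr encodes the endothelial protein C receptor, an anticoagulant receptor of vessel walls, and was barely detected. Over all 78 libraries it had 157 counts, 25 libraries had 0, and 14 had more than 3. Summed per mouse it gave 4 to 24 counts, or 0.192 to 0.633 CPM in KO and 0.302 to 0.821 CPM in WT mice. Its interval, -1.02 to 0.51, allows a drop of 50.6% or a rise of 42.6%, so a difference of that size was not detectable at this depth.

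**Figure D2:**
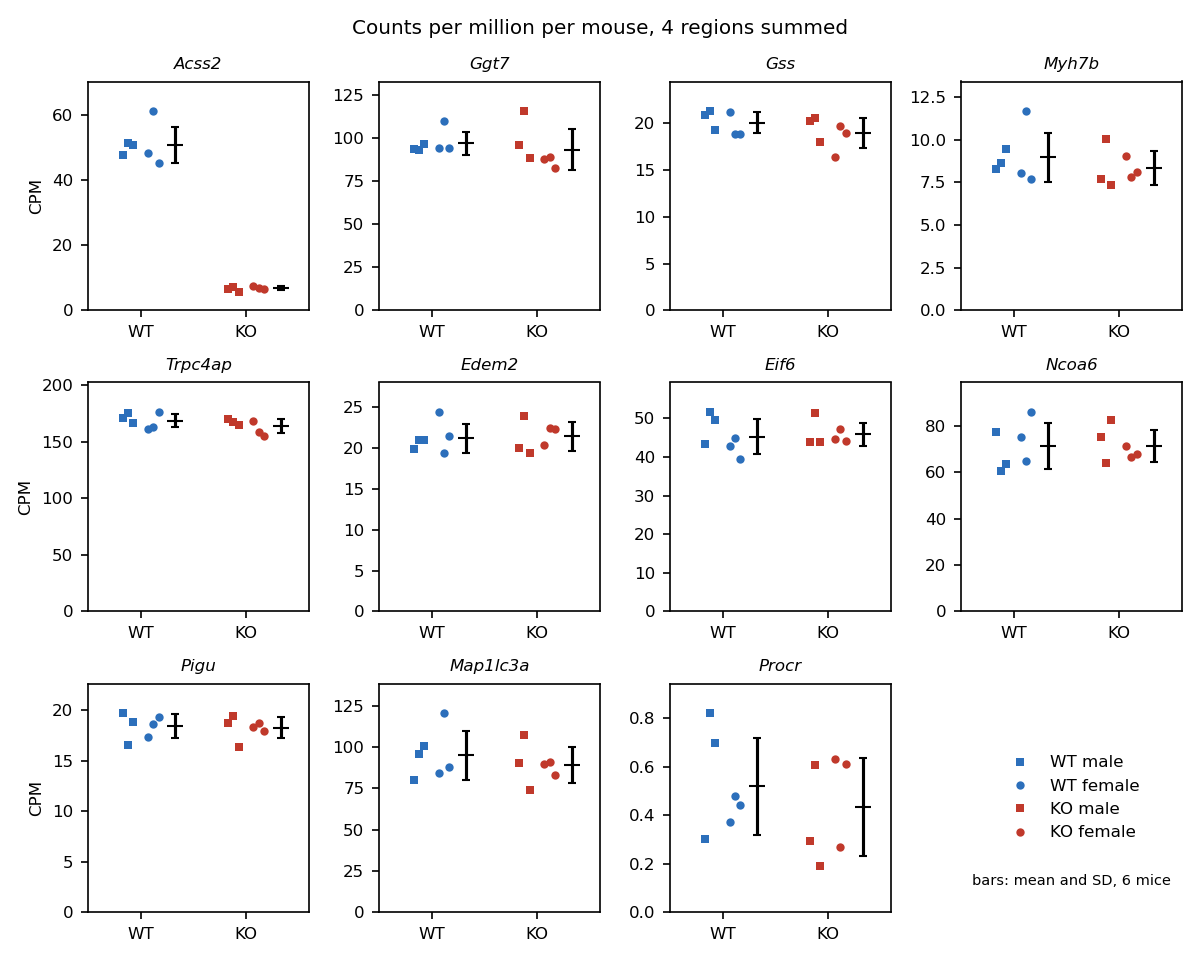
Each point is 1 mouse, in CPM after summing 4 regions (squares male, circles female), with the mean and SD of 6 mice beside each genotype and every axis starting at 0. Acss2 separates the genotypes (KO 5.80 to 7.64, WT 45.2 to 61.2), and the points of the 10 neighbours overlap.

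Among the 10 neighbours, the sex difference with the smallest unadjusted p was that of Ggt7. In females the KO mice were at 88.2, 88.9 and 83.0 CPM and the WT mice at 94.4, 110 and 94.2 CPM, and the ranges did not overlap. In males the KO mice were at 96.2, 116 and 88.8 CPM and the WT mice at 93.7, 93.2 and 96.5 CPM, and the WT mice lay inside the KO range. This was 1 of the 10 neighbours without overlap in females, and 0 of 10 were without overlap in males. The share of all genes without overlap was not computed, so these counts cannot be set against a background and carry no test. The log2 fold change was -0.22 in females and 0.12 in males, each fitted alone, with edgeR adjusted p of 0.99983 and 0.805. The interaction, male minus female, was 0.35 ± 0.13 (SE, 3 mice per sex and genotype), with an unadjusted p of 0.0179 and an adjusted p of 0.567 by edgeR. No gene of 16984 was called in that test (0%), 0 of the 10 neighbours were, and Ggt7 was the only neighbour with an unadjusted p under 0.05. The highest values of each genotype, mouse 10 and mouse 23, came from mice whose dorsal striatum libraries lacked striatal markers. Without the 4 mice with such libraries (8 mice left) the interaction for Ggt7 was 0.13 (95% interval -0.10 to 0.36, unadjusted p = 0.241, edgeR). It was 0.24 without mouse 10 alone (unadjusted p = 0.0383, edgeR) and 0.28 without mouse 23 alone (unadjusted p = 0.0457, edgeR). With any other single mouse left out, and by DESeq2, the unadjusted p for Ggt7 was also under 0.05. No alternative called Ggt7 after adjustment. In the fit without the 4 mice Ncoa6 had an interaction of 0.46 with an unadjusted p of 0.0317 and an adjusted p of 0.642.

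DESeq2 called 37 genes in the sex difference test, and 0 of the 10 neighbours.

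Each region was then fitted alone with both sexes. Acss2 was called in 7 of 7 regions, with log2 fold changes from -3.30 in the ventral hippocampus to -2.71 in the prefrontal cortex and no overlap of KO with WT libraries in any. Of the 9 neighbours with enough counts (all but Procr), 0 were called in any region, by edgeR or by DESeq2, and 0 had an unadjusted p under 0.05 by either. The share of all genes called was 0.00675% in amygdala, 0.00977% in cortex, 0.00702% in dorsal hippocampus, 0.00702% in dorsal striatum, 0.0973% in prefrontal cortex, 0.00951% in ventral hippocampus and 0.00721% in ventral striatum. Over the 70 pairs of neighbour and region, KO and WT ranges overlapped in 70. The share of such pairs over all genes was not computed. Procr, with 0 counts in 25 of the 78 libraries, is among the 70, and its overlap carries little information. Without the libraries apart by striatal markers, dorsal striatum, ventral striatum and ventral hippocampus again gave 0 of 9 called and 0 of 9 at an unadjusted p under 0.05. For Gss the interval was -0.40 to 0.14 in the ventral striatum and -0.64 to 0.94 in the prefrontal cortex, where it had 5 to 16 counts per library. For Ggt7 the widest was in the dorsal striatum (-0.51 to 0.40).

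The smallest unadjusted p of the neighbours in a region was that of Ncoa6 in the amygdala (unadjusted p = 0.0581, edgeR), where KO libraries held 54.9 to 70.4 CPM (median 62.1) and WT libraries 50.2 to 59.9 CPM (median 56.5). The log2 fold change there was 0.19, with a 95% interval of -0.01 to 0.39. It was not in one direction across regions: Ncoa6 was at 0.09 in ventral hippocampus, 0.02 in dorsal hippocampus, -0.20 in cortex and -0.32 in prefrontal cortex. In the prefrontal cortex without the library of mouse 23 that went against its sex label, the value for Ncoa6 was -0.52 (unadjusted p = 0.0313, edgeR). The striatal markers were higher in every KO than in every WT library of this region (712 to 2134 against 234 to 396 CPM). The oligodendrocyte markers had a higher median in KO (7839 against 2363 CPM), with overlapping ranges. The part of such differences in the prefrontal values of the neighbours was not tested.

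Myh7b in the dorsal hippocampus was at 6.23 to 10.8 CPM in KO and 8.36 to 13.02 CPM in WT libraries, a log2 fold change of -0.27 (unadjusted p = 0.0854). In the amygdala the KO libraries held 6.23 to 10.8 CPM (median 6.98) and the WT libraries 6.56 to 17.5 CPM (median 10.5), a value of -0.49 with an interval of -1.08 to 0.09. The WT library of mouse 23 held 17.5 CPM and the next 10.8 CPM. In the ventral and dorsal striatum Myh7b had values of 0.00 and -0.01.

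Gss, whose gene body Acss2 overlaps in GENCODE, was at 9.34 to 24.9 CPM in KO and 12.8 to 27.6 CPM in WT libraries of ventral hippocampus, on 9 to 26 counts. The log2 fold change of -0.37 (-0.86 to 0.12) was the furthest from 0 among the regions for Gss, and it was -0.27 without the KO library high in striatal markers. In dorsal striatum, cortex and prefrontal cortex the Gss value was above 0, at 0.10, 0.12 and 0.15. Ggt7 stayed between -0.12 in dorsal hippocampus and 0.05 in ventral striatum.

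In the dorsal striatum Ggt7 was 126 CPM in KO male mouse 10 and 125 CPM in WT female mouse 23, the libraries with 447 and 266 CPM of striatal markers. The other 5 KO libraries held 61.1 to 78.4 CPM of Ggt7 and the other 5 WT libraries 66.0 to 83.1 CPM. One such library fell in each genotype, and the log2 fold change was -0.05 both with them (interval -0.51 to 0.40) and without them (-0.25 to 0.15). The remaining libraries thus gave a narrower interval around the same value.

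**Figure D3:**
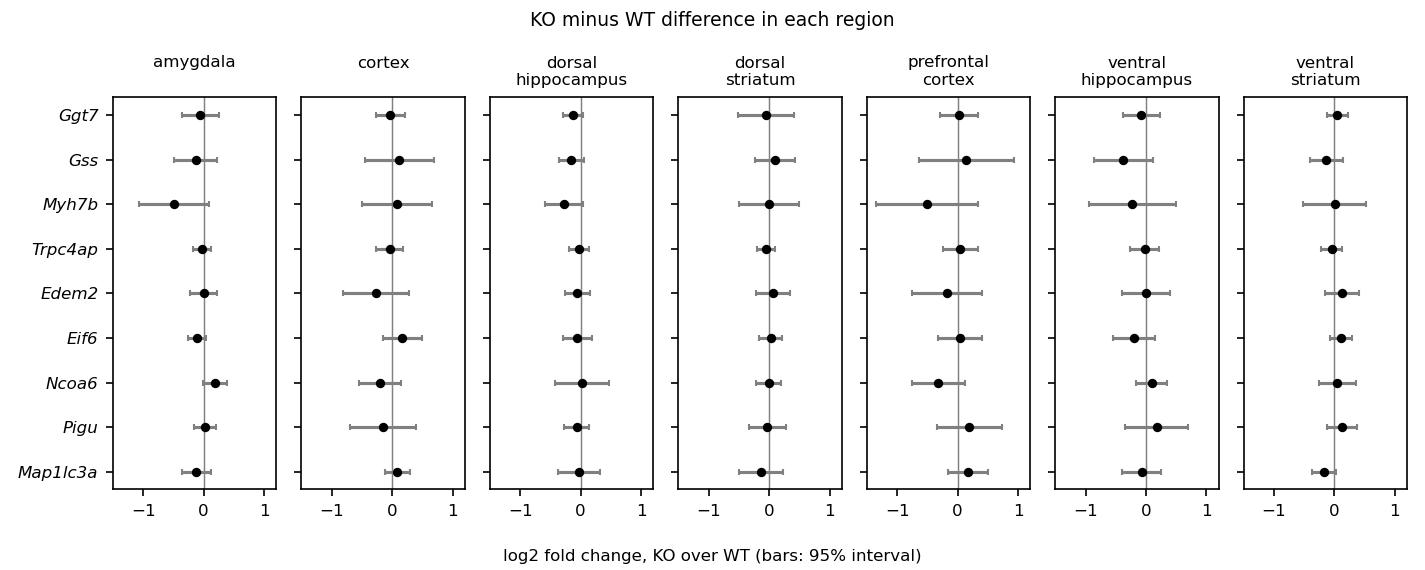
Each panel is a region and each point the log2 fold change of KO over WT of 1 neighbour, with its 95% interval, from 4 to 6 KO and 4 to 6 WT libraries. All 63 intervals include 0, and the widest is that of Myh7b in the prefrontal cortex, from -1.35 to 0.34.

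Whether the difference itself changed with region was tested over the 4 regions that all mice have. No gene of 15200 was called by edgeR (0%, 513 at an unadjusted p under 0.05), and 0 of the 9 neighbours had an unadjusted p under 0.05. Gss had the smallest, an unadjusted p of 0.235 and an adjusted p of 0.99983 by edgeR. With the mouse as a replicate block it was again 0 genes and 0 neighbours, and likewise without the 4 libraries apart by striatal markers.

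The wider neighbourhood was read from the pooled fit. Within 1 Mb of Acss2, 32 of 75 other genes had enough counts. By edgeR 0 of the 32 were called and 0 had an unadjusted p under 0.05, with 16 higher and 16 lower in KO. The smallest p values belonged to Gm37274 (log2 fold change 0.65, -0.20 to 1.50, unadjusted p = 0.121), Uqcc1 (-0.09, -0.21 to 0.03, unadjusted p = 0.124), which encodes an assembly factor of respiratory complex III, and BC029722 (-0.11, -0.27 to 0.05, unadjusted p = 0.158). All had an adjusted p of 1. Within 5 Mb, 131 of 310 other genes were tested, 0 were called and 6 had an unadjusted p under 0.05. In the rest of chromosome 2 it was 0 called and 33 unadjusted of 1134, and over all genes 593 of 16672, or 3.56%, had an unadjusted p under 0.05. Within 0.25 Mb, 3 of 17 other genes were tested and 0 were called. The median absolute log2 fold change was 0.04 within 1 Mb, 0.06 within 5 Mb and 0.06 in the rest of the chromosome, in sets not matched for level.

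**Figure D4:**
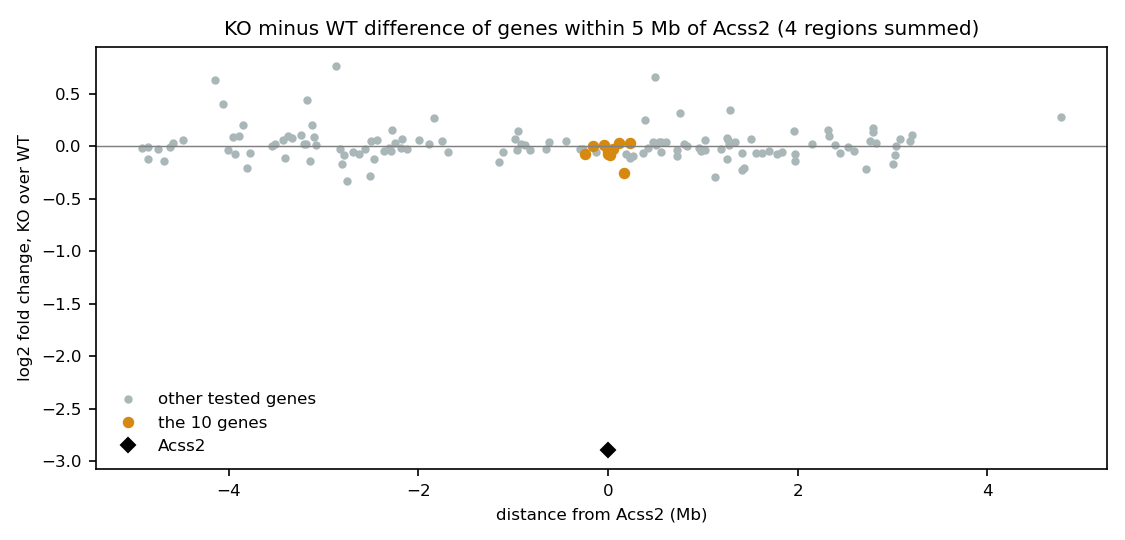
Each point is a gene tested within 5 Mb of Acss2, placed by its distance in Mb and its log2 fold change of KO over WT in the summed libraries. Acss2 stands alone at -2.89, and the 10 neighbours (orange) lie between -0.25 and 0.03.

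The genes that work with the neighbours were read in the same fit. Of 32 listed partners 31 were tested, 0 were called by edgeR and 1 had an unadjusted p under 0.05, with 9 higher and 22 lower. For glutathione synthesis and breakdown, 10 of 11 partners of Gss and Ggt7 were tested and 0 called, with a median log2 fold change of -0.02. Both other acetyl-CoA synthetases, Acss1 and Acss3, were tested and 0 were called. The lists around Pigu (4 genes), Edem2 (4), Map1lc3a (4), Ncoa6 (3) and Eif6 (2) also had 0 called and 0 at an unadjusted p under 0.05. The one partner under 0.05 before adjustment was F2r, the thrombin receptor listed with Procr, at -0.46 (edgeR, unadjusted p = 0.0221, adjusted p = 1), chosen for naming after its value was seen.

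The neighbours did differ in level from one another and between regions. Per kb of exon, WT mice had mean levels of 80.4 CPM for Map1lc3a, 29.7 for Ggt7, 19.3 for Trpc4ap, 16.7 for Eif6, 7.32 for Ncoa6 and 6.12 for Edem2. Acss2 followed at 5.0, and then came Gss at 3.39, Pigu at 1.97, Myh7b at 1.35 and Procr at 0.256. In this order the ranges over the 6 WT mice overlapped between Trpc4ap and Eif6, between Ncoa6 and Edem2, and between Edem2 and Acss2, and between no other pair next to each other. The length is that of all annotated exons merged, which is longer than any single transcript. For Acss2 it is 10163 bp, against 2931 bp for the transcript of 18 exons, so its place in this order depends on the length used.

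Between the 4 deeper regions (both striatal regions, dorsal hippocampus and amygdala), 7 of 9 neighbours changed in level (edgeR F test over 47 libraries). Of all genes tested there 76.4% were called, so this count is near the background. Myh7b (adjusted p = 0.236) and Eif6 (0.190) were not called, nor was Acss2 (0.718). With the mouse as a replicate block, and without the 3 striatum libraries apart by their markers, it was again 7 of 9. In bulk tissue, fewer cells of a type and less RNA per cell cannot be told apart.

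Map1lc3a differed most by its p value (adjusted p = 1.9e-10). It had 79.04 ± 17 CPM in dorsal striatum and 80.1 ± 8.69 in ventral striatum, against 113 ± 24.3 in dorsal hippocampus and 140.2 ± 18.6 in amygdala (SD over 12, 12, 12 and 11 libraries of both genotypes). Ggt7 had the same split, with 82.0 ± 21.2 and 86.5 ± 7.54 CPM in dorsal and ventral striatum and 113 ± 8.97 and 116 ± 17.6 CPM in dorsal hippocampus and amygdala (adjusted p = 1.59e-06). Without the 3 striatum libraries the adjusted p for Ggt7 was 9.69e-12. Without them Ggt7 had 73.3 ± 6.73 CPM in dorsal striatum (SD, 10 libraries) and 86.1 ± 7.82 in ventral striatum (11 libraries), further apart than 1 SD, while with them the levels lay within 1 SD. Map1lc3a then had 73.04 ± 9.56 and 79.1 ± 8.42 CPM, within 1 SD of each other as with all libraries. The highest mean of both was in cortex, at 173 ± 15.0 CPM for Map1lc3a and 128 ± 17.6 for Ggt7 (11 libraries). Cortex is one of the shallower regions and was not in the F test. Its difference from the deeper regions cannot be told apart from one of library depth.

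Gss and Edem2 were highest in the dorsal hippocampus. Gss had 23.5 ± 2.55 CPM there, 17.7 ± 3.55 in dorsal striatum, 16.4 ± 3.18 in ventral striatum and 13.4 ± 3.13 in amygdala (adjusted p = 9.37e-09). Edem2 had 26.4 ± 2.29 CPM in dorsal hippocampus and between 18.4 and 19.7 CPM in the other 3 deeper regions (adjusted p = 4.44e-09). Those 3 lay within 1 SD of the next in order.

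Pigu was highest among the deeper regions in amygdala, at 22.6 ± 1.42 CPM, and lowest in dorsal striatum, at 16.2 ± 2.64 CPM (adjusted p = 5.19e-06). Trpc4ap ranged from 159 ± 9.68 CPM in dorsal striatum to 187 ± 9.62 in amygdala (adjusted p = 0.000352), a small spread for its level. Ncoa6 went from 59.8 ± 6.14 CPM in amygdala to 79.1 ± 18.7 in dorsal hippocampus (adjusted p = 0.0021). Eif6 lay between 42.9 and 47.6 CPM in these regions, and Myh7b between 7.56 and 9.45 CPM. Over all 7 regions and the 10 neighbours, 60 of 60 pairs of regions next to each other in a gene's order had overlapping library ranges, and 53 differed by less than 1 SD. Regions next to each other in a sorted order are close by construction, and the share over all genes was not computed.

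**Figure D5:**
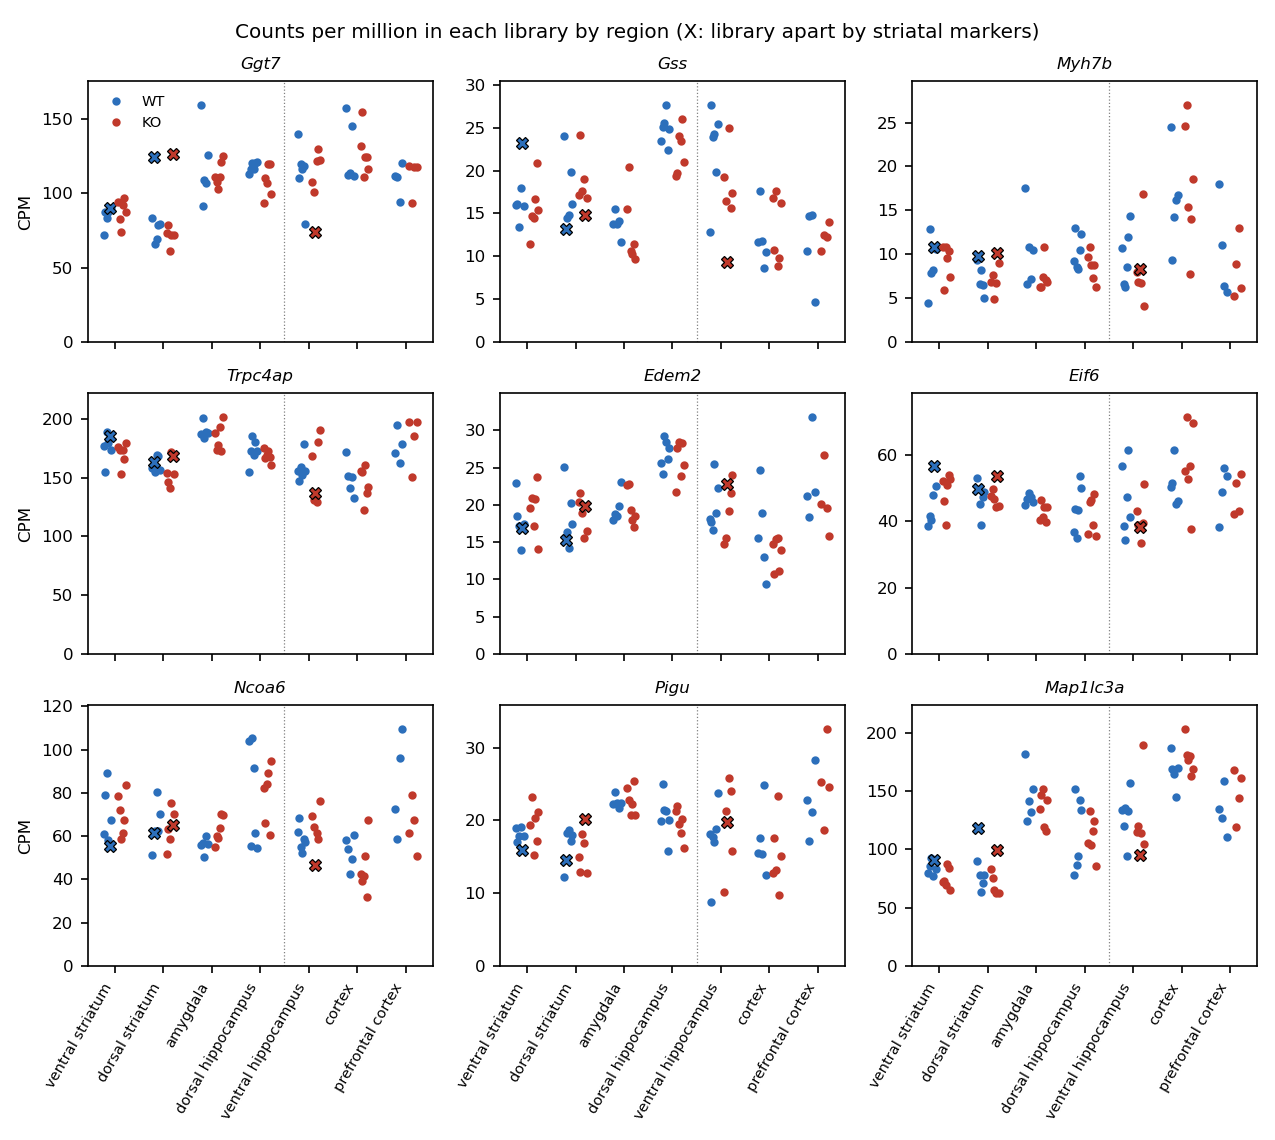
Each point is a library, in CPM, by region and genotype, and every axis starts at 0. Regions left of the dotted line had at least 4454420 counts per library and those right of it at most 1228828. KO and WT points overlap in every region, Ggt7 and Map1lc3a are lower in both striatal regions, and crosses mark the 4 libraries apart by striatal markers.

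Across the 23 WT libraries of the deeper regions, the genes whose log2 CPM followed Ggt7 most closely among 14709 were Jdp2, Mfsd12 and Brsk2, with Pearson's r of 0.94, 0.94 and 0.94. For Gss they were Gprc5b, Vav3 and St18, with r of 0.87, 0.86 and 0.83. Ggt7 and Gss, on either side of the deleted exons, had an r of 0.15 with each other, and Ggt7 and Map1lc3a had an r of 0.79. In the 21 libraries left without those apart by striatal markers, these were 0.24 and 0.78, and the 6 look-alike genes had r of 0.84 to 0.94. These libraries share regions and depth, so the values describe patterns and carry no test.

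Mice of the same sex and genotype were also compared with each other across the 4 shared regions, a test added after the data were seen. By edgeR, 26 of 15006 genes (0.173%) differed between such mice and 0 of the 9 neighbours did. The neighbour with the smallest p was Map1lc3a (unadjusted p = 0.00356, adjusted p = 0.203). None of the 26 genes was on chromosome 2, but the share of that chromosome among the 15006 genes was not computed. The comparison is made within a genotype, so it cannot show a variant that all KO mice carry. Without the 4 libraries apart by striatal markers 5 genes were called, and 0 neighbours. With each mouse left out in turn, 5 (without KO male mouse 2) to 39 (without WT female mouse 11) genes were called, and 0 neighbours each time.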

How the data were processed

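Poly(A) RNA was isolated from 300 ng total RNA and made into libraries with a NEBNext Ultra II kit, per the labels' protocols. The authors deposited whole-number read counts per gene symbol, 1 table per sex. The submitters' processing notes list STAR 2.5.2a, SAMtools 1.1, HTSeq 0.6.1, DESeq2, R 4.0.2, GRCm38 and mm10, without their roles.

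Counts were fitted with edgeR 4.0.16 (limma 3.58.1, R 4.3.3): TMM, filterByExpr (minimum count 10, minimum total 15), quasi-likelihood test, sex as a term, Benjamini-Hochberg adjustment over all genes tested, threshold 0.05. The pooled test summed 4 regions per mouse, which weights each region by its depth. Ventral hippocampus gave only 629635 to 1206013 counts per mouse. In WT male mouse 13 dorsal striatum gave 14487778 of the 29245883 summed counts. DESeq2 1.42.0 was an alternative. CPM are counts scaled to a library total of 1e6. The scripts were tested on simulated data. Intervals are 95%, from the fit.

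The 10 genes and all lists were chosen with earlier results of these data known. The 10 are named throughout. Other neighbours are named when called or among the 3 smallest pooled p, partners when called (Acss1, Acss3 and F2r are named beyond this rule), and look-alike genes as the 3 with the highest r (prior count 2). The 7 marker lists were oligodendrocyte, choroid plexus, astrocyte, microglia, endothelial, striatal projection neuron and excitatory neuron. The limits for libraries apart by striatal markers (under 1000 CPM in striatum, over 3000 CPM elsewhere) were set after seeing the data.

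Libraries with one mouse number come from the same animal. Their deviations from group means had a mean correlation of 0.0287 over 72 pairs of regions (-0.290 to 0.566). Over 144 pairs of different mice it was -0.0138 (-0.617 to 0.685). Deviations from the mean of a group add up to 0, which ties both means to each other, so the latter is not an independent comparison. Promoter and RefSeq sequences are from the GRCm38.p6 tables.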

Additional observations from a re-analysis of the deposited data

Results flagged for a closer look

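In 162 groups of 4 to 6 values (6 KO or 6 WT mice, or the libraries of a region and genotype), 10 had a lowest or highest value far from the rest, where chance gives about 1 in 20 groups. Over summed regions this was Ggt7 in WT female mouse 23, at 110.2 CPM against 96.5 CPM in the next WT mouse. The same mouse stood apart for Ggt7 in dorsal striatum (124.6 CPM, next 83.1), as did KO male mouse 10 among KO libraries (126.4 CPM, next 78.4). These dorsal striatum libraries held 266 and 447 CPM of striatal markers.

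Ggt7 was also low in the prefrontal cortex of KO female mouse 5 (93.2 CPM, next 117.7) and in the ventral striatum of WT female mouse 11 (71.7 CPM, next 83.3). KO male mouse 10 was high in the ventral hippocampus for Map1lc3a (189.7 CPM, next 120.4) and for Myh7b (16.8 CPM on 14 counts, next 8.31). Myh7b was high in the amygdala of KO male mouse 1 (10.8 CPM, next 7.40). Acss2 was low in the cortex of WT male mouse 13 (48.6 CPM, next 59.4) and high in the prefrontal cortex of KO female mouse 4 (12.7 CPM on 12 counts, next 7.91).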

How the results depend on the processing

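The number of neighbours called, 0 in each KO and WT comparison, the sex difference, the region difference and the mouse difference, and 7 between deeper regions, was the same under every alternative run, each mouse left out in turn included (for the sex, region, level and mouse differences this was added after seeing the data). The replicate block gave 0 neighbours for the region difference and 7 for the deeper regions. Over 1454 alternative values of the neighbours' log2 fold changes, 0 changed a call, 163 had the other sign from an uncalled main value, and 34 had an unadjusted p under 0.05. Pooled values ran from -0.22 to 0.12 for Ggt7 and from -0.17 to -0.01 for Gss. The KO and WT difference of Acss2 kept its sign in all, and lost its call in 5 fits of 1 sex in a single region. Its sex difference, not called, had the other sign in 5 of 16 alternatives.

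Counts of all genes called moved more, and the cause was not tested. In the pooled test they were 2 without a low-count filter, 4 by DESeq2, 6 with 7 regions and the replicate block (6 also without the library that went against its sex label), and 1 to 2 when 1 mouse was left out (2 without WT male mouse 3). Without a filter they were 10 in cortex, 2 in dorsal hippocampus, 367 in prefrontal cortex, 101 in ventral hippocampus and 2 for the region difference. DESeq2 called 37 for the sex difference, 2 in amygdala and 39 in prefrontal cortex. Females alone gave 0 in amygdala, 4 in cortex, 0 in dorsal striatum, 50 in prefrontal cortex and 0 in ventral striatum, and males alone 0 in both striatal regions. In the prefrontal cortex (11 called) it was 76 without the library that went against its sex label and 7 to 102 when 1 mouse was left out. The mouse difference had 5 without the libraries apart by striatal markers and 5 to 39 when 1 mouse was left out.

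Males alone were not tested in prefrontal cortex, which had 1 KO library. Leaving out ventral hippocampus and summing the 3 deeper regions are the same fit. In the shallower regions Gss and Myh7b rested on 5 to 26 counts per library, and Procr was tested within regions only without a low-count filter, with 0 calls.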

Other observations

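Outside chromosome 2, the fit of all 7 regions with the mouse as a block called 5 genes besides Acss2: Mcm5 (log2 fold change -0.58), Dmp1 (-1.04), Tnnt1 (-1.74), Tmem267 (0.77) and Ccl28 (0.62), named after their values were seen. The edgeR test on sums per mouse called none of these 5. The block fit used a single correlation between libraries of a mouse, 0.018, for all genes. A gene that differs more between mice gets little allowance in such a fit, and the part of this in the 5 calls was not tested. Tmem267 and Ccl28 both lie on chromosome 13. In the summed libraries Tmem267 was at 9.0, 31.03 and 25.1 CPM in KO females 4, 5 and 6 and at 30.8, 11.9 and 19.3 CPM in KO males 1, 10 and 2. The 6 WT mice lay between 8.16 and 15.97 CPM. The KO mice thus spanned a wider range than the WT mice.

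Tmem267 also had the smallest p of all 15006 genes when mice of the same sex and genotype were compared (adjusted p = 7.58e-07, edgeR), followed by Ide on chromosome 19, which encodes the insulin-degrading enzyme. Both were again called without the 4 libraries apart by striatal markers. Ccl28 was called in the main comparison of such mice (adjusted p = 0.0449, edgeR) and not without those 4 libraries. Dmp1, Mcm5 and Tnnt1 were not called in the main comparison of such mice (adjusted p = 0.0608, 0.232 and 0.718, edgeR).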
